A study of Mus musculus with 6 samples.

Results

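The genes described here are 37 members of the ATF4 pathway and the unfolded protein response, the programs by which a cell answers amino acid shortage and misfolded protein. They were taken by symbol from a fixed list, and all 37 were found among the 56941 gene IDs of the count table. All 37 passed the filter on low counts, beside 17072 genes tested in all. By role they comprise 4 genes that set eIF2 phosphorylation, 7 transcription factors and regulators of the ATF4 axis, 2 further ATF4 targets and 9 enzymes of amino acid and folate metabolism, called the amino acid arm here. The others are 3 genes of endoplasmic reticulum (ER) stress sensing and 12 ER chaperones and factors of ER-associated degradation (ERAD), called the ER chaperone arm. The samples were cells selected with CD31 magnetic beads from enzyme-digested mouse lungs, taken 7 days after birth. Of the 6 RNA-seq libraries, 3 came from pups in room air (21% oxygen) and 3 from pups in hyperoxia (75% oxygen), which began on postnatal day 0. No strain, genotype or sex was given in the labels, nor whether a library held 1 animal or several. The p-values therefore measure the spread between these samples, which may be technical.

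ATF4 is a transcription factor that is made when kinases phosphorylate the translation factor eIF2. Its messenger RNA is present all along, and upstream reading frames keep its translation low until eIF2 is phosphorylated. ATF4 then raises genes of amino acid uptake and synthesis and its own partners and brakes. The ER arm starts from the sensors PERK, IRE1 and ATF6, which respond to misfolded protein in the ER. ATF6 is released by cleavage, and IRE1 splices the XBP1 message, after which both factors raise chaperones and the machinery that removes misfolded proteins. Lung endothelium makes much secreted and membrane protein.

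Total counts ran from 39379793 to 42343192 per library. The libraries were not purely endothelial. Markers of alveolar type 2 cells summed to between 12205 and 19115 CPM (counts per 1000000, after scaling of the libraries) in room air and between 13646 and 16683 CPM in hyperoxia, beside 12282 to 16957 and 9979 to 13772 CPM for 10 pan-endothelial markers. All 8 alveolar type 1 markers were higher in hyperoxia (sums of 2145 to 3010 CPM in room air and 5163 to 6772 CPM in hyperoxia). No gene of the marker lists was at 0 in all libraries. Most of the alveolar type 2 sum came from Sftpc alone (mean CPM of 10132 and 9660, room air first). The sums were not corrected for gene length, and comparing them between lists does not give the shares of the cell types. Hyperoxia 2 held the highest alveolar type 1 sum and the lowest endothelial sum. Reads of 4 Y-linked genes stood at 129 to 162 CPM in the room air libraries and in hyperoxia 2, and at 0.0472 CPM or less in hyperoxia 1 and 3. By these reads, male cells were nearly absent from hyperoxia 1 and 3 and present in every room air library. Sex and oxygen can therefore not be fully told apart in these libraries. In bulk samples such as these, fewer cells of a type and less RNA per cell cannot be told apart.

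Letters of 2 kinds of known response element occur in the promoters of some members called in each direction. The stretches shown here come from RefSeq promoter windows of 300 bases on GRCm38.p6, 5′ to 3′ along the gene, and were found for 34 of the 37 members (38 windows). The motifs searched on both strands were TGATGNAA, the composite element bound by ATF4 with a C/EBP partner, and the ER stress elements ERSE (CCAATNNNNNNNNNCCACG) and ERSE-II (ATTGG and CCACG with any 1 base between). TGACGTGG, the unfolded protein response element of XBP1 and ATF6, was searched too. No match overlapped another. Capitals mark the match, and a match on the opposite strand reads as its reverse complement. The first 5 stretches are those of the members that rose and hold the composite element. That of Trib3 lies just inside the transcript, and that of Vldlr in 1 of its 2 windows.
Nupr1 (chr7:126625553-126625600, minus strand): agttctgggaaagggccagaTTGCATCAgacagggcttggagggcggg
Vldlr (chr19:27216800-27216847, plus strand): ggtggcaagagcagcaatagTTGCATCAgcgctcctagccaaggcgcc
Trib3 (chr2:152344028-152344057, minus strand): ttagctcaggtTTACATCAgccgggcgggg
Asns (chr6:7693205-7693252, minus strand): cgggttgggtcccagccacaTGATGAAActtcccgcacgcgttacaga
Herpud1 (chr8:94386297-94386407, plus strand): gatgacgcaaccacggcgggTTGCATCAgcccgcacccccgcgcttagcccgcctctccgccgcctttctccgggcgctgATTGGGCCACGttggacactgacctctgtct
The Herpud1 stretch holds the composite element and, after it, ERSE-II. The next stretches are those of the 5 members with ERSE, all of them ER folding genes with a log2 fold change below 0.
Pdia6 (chr12:17266471-17266529, plus strand): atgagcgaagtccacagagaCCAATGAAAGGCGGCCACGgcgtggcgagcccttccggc
Calr (chr8:84847055-84847113, minus strand): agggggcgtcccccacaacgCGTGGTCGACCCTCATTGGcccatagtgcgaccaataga
Hsp90b1, first of 2 (chr10:86705618-86705676, minus strand): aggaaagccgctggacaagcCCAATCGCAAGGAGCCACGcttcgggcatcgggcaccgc
Hsp90b1, second of 2 (chr10:86705513-86705571, minus strand): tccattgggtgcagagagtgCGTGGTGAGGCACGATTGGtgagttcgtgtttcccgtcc
Hspa5 (chr2:34772005-34772063, plus strand): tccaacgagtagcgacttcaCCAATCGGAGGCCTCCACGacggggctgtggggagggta
Creld2 (chr15:88819500-88819558, plus strand): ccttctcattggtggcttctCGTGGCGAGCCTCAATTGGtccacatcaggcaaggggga
Chac1 and Pycr1 also hold the composite element but did not pass, and their stretches are not shown. Atf5 and Xbp1 were called and hold no match in their windows, and Atf6 had no window. A match describes these letters and is not a site shown to be bound.

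In hyperoxia, 7 of the 37 members rose, 4 fell and 26 did not pass. A gene was called at an adjusted p below 0.05 in edgeR's quasi-likelihood test across all genes, with Benjamini-Hochberg adjustment, which is the source of the adjusted p-values here. Those that rose were Nupr1, Atf5, Trib3, Vldlr and Asns, all ATF4 targets, and Atf6 and Herpud1 of the ER side. Those that fell were Xbp1, Calr, Pdia6 and Hsp90b1, all of the ER side. The counts come to 18.9% of the members higher and 10.8% lower, beside 6.77% higher and 4.41% lower among all genes tested. In the amino acid arm 1 of 9 genes was called higher and 0 lower (median log2 fold change 0.42), and lower genes also numbered 0 at an unadjusted p below 0.05, in DESeq2 and in limma-voom. In the ER chaperone arm 1 of 12 was higher and 3 were lower (median -0.32). The median over all genes tested was -0.01.

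**Figure D1:**
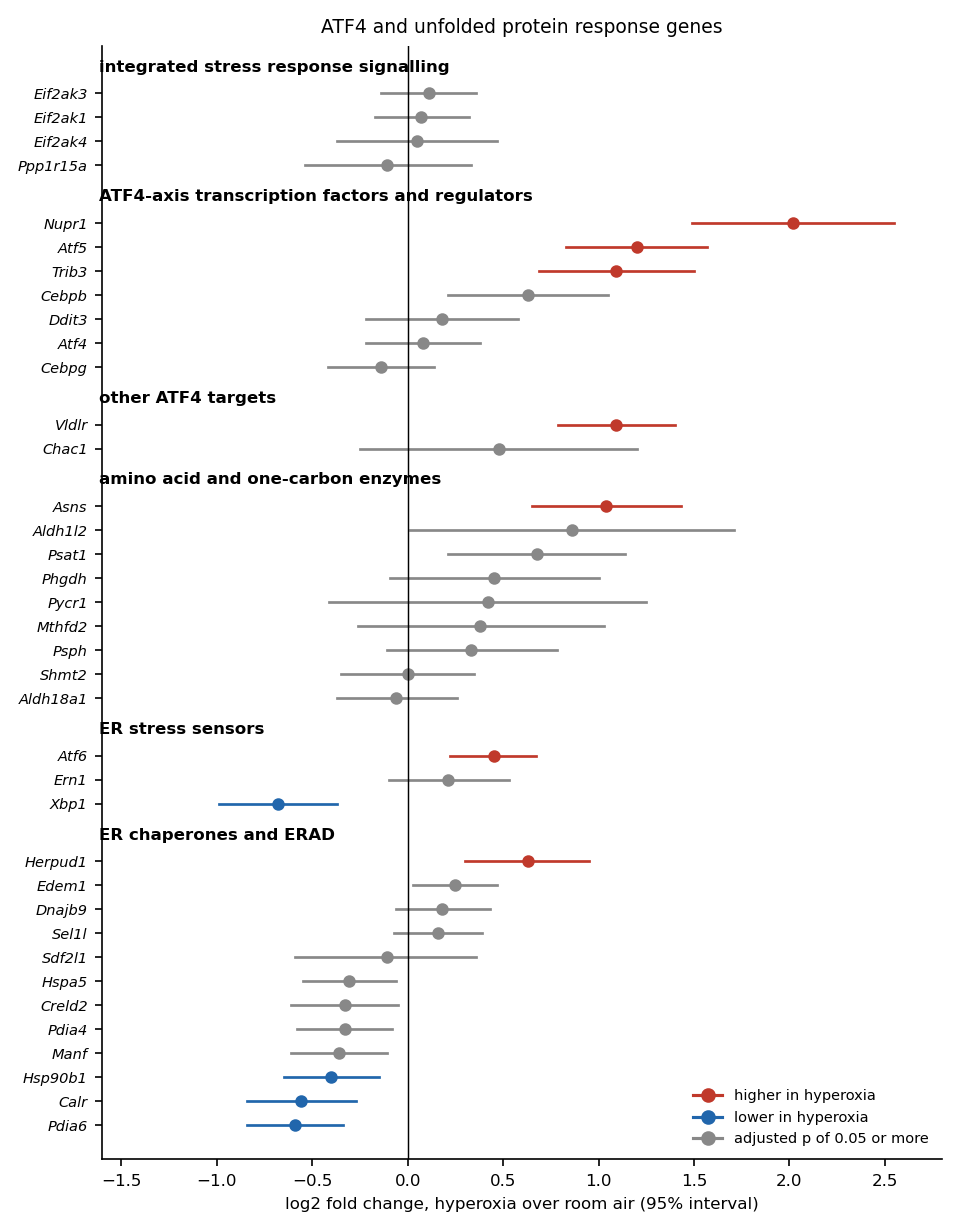
Log2 fold change of each of the 37 members, hyperoxia over room air, with its 95% interval from edgeR's quasi-likelihood fit, grouped by role. Red points are the 7 members called higher, blue points the 4 called lower, and grey points did not pass. The points run from -0.68 for Xbp1 to 2.02 for Nupr1.

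Neither Atf4 nor Ddit3 passed the test. Atf4 itself held 183, 259 and 240 CPM in room air and 245, 240 and 234 CPM in hyperoxia. The groups overlapped, with room air 1 the lowest library (log2 fold change 0.08, 95% interval -0.22 to 0.38, adjusted p = 0.771). Ddit3, the gene for CHOP, a factor linked to cell death under prolonged stress, held 7.36, 8.70 and 9.97 CPM in room air and 9.74, 9.98 and 9.77 CPM in hyperoxia. Its groups overlapped as well (log2 fold change 0.18, 95% interval -0.22 to 0.58, adjusted p = 0.588).

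None of the eIF2 kinase genes was called. Eif2ak3, the gene for the ER-bound kinase PERK, held 42.2, 48.3 and 41.7 CPM in room air and 44.8, 45.8 and 51.9 CPM in hyperoxia with overlap (adjusted p = 0.603, log2 fold change 0.11, 95% interval -0.14 to 0.36). Eif2ak1, the heme-regulated kinase gene (0.07), and Eif2ak4, the gene for the amino acid sensor GCN2 (0.05), had log2 fold changes within 1 SE of 0. Ppp1r15a encodes GADD34, which returns eIF2 to its unphosphorylated form. It spread from 286 to 544 CPM within room air and from 359 to 396 CPM in hyperoxia, and its log2 fold change of -0.11 became 0.15 without room air 2. In these 4 genes edgeR made 0 calls, also at an unadjusted p below 0.05, and so did DESeq2 and limma-voom. These are levels of messenger RNA, and phosphorylation of eIF2 and the amount of ATF4 protein were not measured.

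Several ATF4 targets rose although Atf4 did not pass. Nupr1, a small stress-induced chromatin protein gene, had the largest change of the members. It held 14.0, 10.3 and 19.9 CPM in room air and 45.2, 75.1 and 59.5 CPM in hyperoxia, a 4.06-fold rise (log2 fold change 2.02, SE 0.24, adjusted p = 0.000726). The lowest hyperoxia library was above the highest room air library. Atf5, a related factor under the same translational control, held 18.7, 16.3 and 17.6 CPM in room air and 32.6, 50.9 and 37.2 CPM in hyperoxia. It rose 2.30-fold with groups apart (log2 fold change 1.20, SE 0.17, adjusted p = 0.00155).

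Trib3, a pseudokinase that binds ATF4 and restrains it, held 10.6, 7.68 and 7.65 CPM in room air and 16.1, 19.5 and 19.8 CPM in hyperoxia. It rose 2.13-fold and the groups did not overlap (log2 fold change 1.09, SE 0.18, adjusted p = 0.00393). Vldlr, a lipoprotein receptor gene that ATF4 can raise, held 25.8, 26.0 and 31.2 CPM in room air and 50.7, 68.8 and 57.5 CPM in hyperoxia. The rise was again 2.13-fold, with the groups apart (log2 fold change 1.09, SE 0.14, adjusted p = 0.000995). Nupr1, Atf5, Trib3, Vldlr and Asns were called with each library left out in turn, with adjusted p-values of at most 0.0227.

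The partners of ATF4 were less clear. Cebpb, a C/EBP factor gene, held 40.1, 35.1 and 55.4 CPM in room air and 62.5, 84.0 and 55.4 CPM in hyperoxia. Hyperoxia 3 was level with room air 3, and the gene missed the threshold (log2 fold change 0.63, SE 0.19, adjusted p = 0.0591). It passed without room air 3 (adjusted p = 0.0103) and in DESeq2 (0.0161). Over the fits that left out 1 library, its adjusted p reached 0.199 and its log2 fold change went down to 0.44. For Cebpg, a C/EBP partner of ATF4 on amino acid genes, the log2 fold change was -0.14 (adjusted p = 0.542). Chac1, which breaks down glutathione, was low and overlapped, with means of 2.26 ± 0.52 and 3.14 ± 0.926 CPM (room air and hyperoxia, ± SD, n = 3 per group). Its log2 fold change was 0.48 with SE 0.33 (adjusted p = 0.409).

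**Figure D2:**
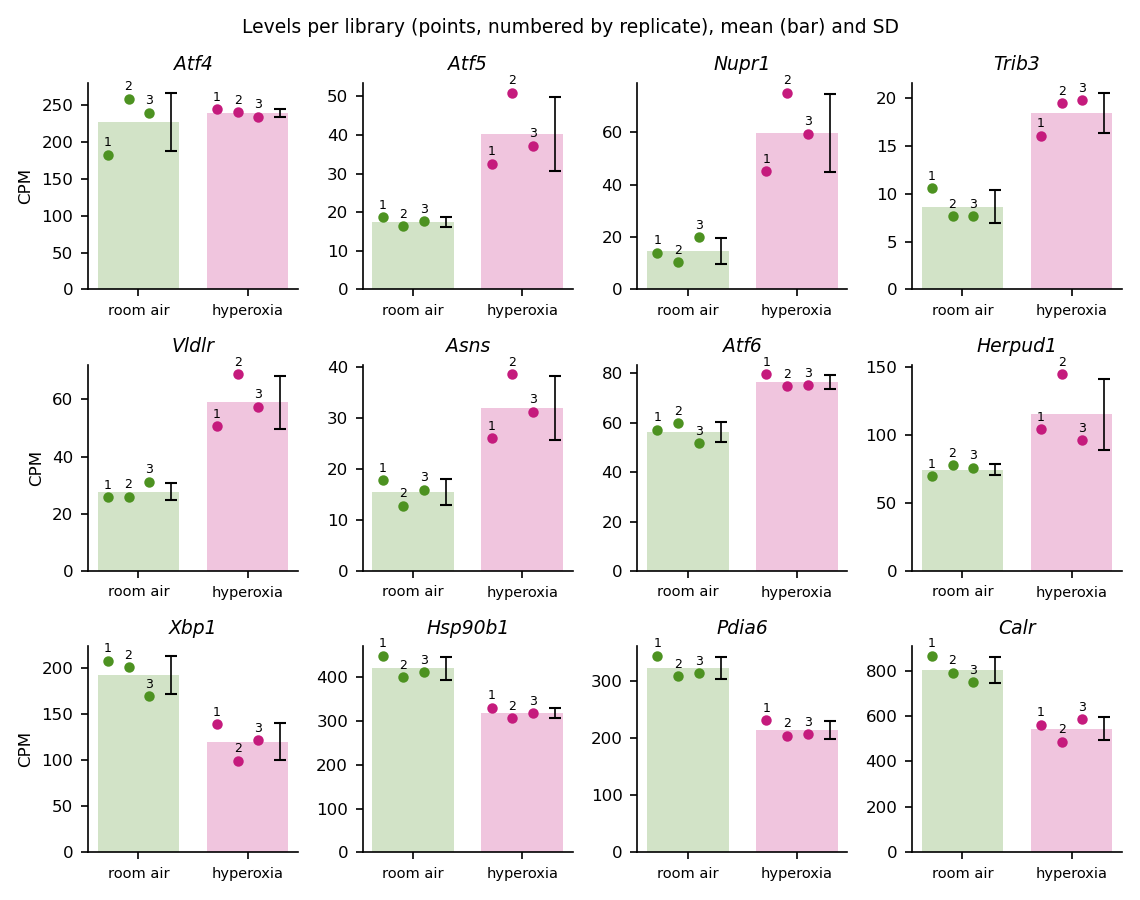
CPM per library of Atf4 and of the 11 members called, in room air (green) and hyperoxia (pink). Points are libraries numbered by replicate, bars are means of 3 and black lines are SDs. Atf4 overlaps between the groups. The other 11 genes do not, and hyperoxia 2 is the highest library for Atf5, Nupr1, Vldlr, Asns and Herpud1 and the lowest for Xbp1, Hsp90b1, Pdia6 and Calr.

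Within the amino acid arm Asns rose, and the others did not pass. Asns encodes asparagine synthetase. It held 17.8, 12.8 and 15.9 CPM in room air and 26.0, 38.5 and 31.2 CPM in hyperoxia, a 2.06-fold rise with groups apart (log2 fold change 1.04, SE 0.18, adjusted p = 0.00401). Psat1, of serine synthesis, held 41.2, 26.6 and 42.9 CPM in room air and 44.3, 74.7 and 57.8 CPM in hyperoxia. Its groups did not overlap, but hyperoxia 1 lay close to room air 3 (log2 fold change 0.68, SE 0.21, adjusted p = 0.066). Psat1 passed without hyperoxia 1 (adjusted p = 0.0307) and in DESeq2 (0.0181). Over the fits that left out 1 library, its adjusted p reached 0.198 and its log2 fold change went down to 0.47.

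The other serine synthesis genes overlapped between the groups. Phgdh, which starts the pathway, had a log2 fold change of 0.45 (95% interval -0.09 to 1.00, adjusted p = 0.29). Psph, which ends it, had 0.33 (95% interval -0.11 to 0.78, adjusted p = 0.346). In the mitochondrial folate pathway, Mthfd2 had a log2 fold change of 0.38 (SE 0.29, adjusted p = 0.461) and Aldh1l2 one of 0.86 (SE 0.38, adjusted p = 0.193), the latter at only 1.76 ± 0.75 and 3.19 ± 1.02 CPM. Shmt2, which feeds serine into that pathway, averaged 49.0 CPM in both groups (SD 2.55 in room air and 11.2 in hyperoxia). For proline synthesis, the log2 fold change was -0.06 for Aldh18a1 (adjusted p = 0.857) and 0.42 for Pycr1 (0.541).

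Of the 9 enzymes, 7 had a log2 fold change above 0. Room air 2 was the lowest library for 6 of them, and hyperoxia 2 the highest for 5. Room air 2 also had the lowest sum of 10 proliferation genes among the room air libraries (355 CPM, beside 550 and 497 CPM), and these genes stood at 197 to 252 CPM in hyperoxia. The part of cell division in these levels was not tested.

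The genes of ER stress sensing went both ways. Xbp1 is the target of the sensor IRE1 and no sensor itself. The sensor genes Atf6 and Ern1 both had higher means in hyperoxia, and only Atf6 was called. Xbp1 fell, from 207, 201 and 169 CPM in room air to 139, 99.4 and 122 CPM in hyperoxia. The highest hyperoxia library was below the lowest room air library, with a 1.60-fold difference (log2 fold change -0.68, SE 0.14, adjusted p = 0.0113). The call held with each library left out (adjusted p of at most 0.0479). Counts per gene do not separate the spliced from the unspliced Xbp1 message. Atf6 rose, from 57.2, 59.7 and 51.7 CPM to 79.6, 74.9 and 75.1 CPM, with groups apart (log2 fold change 0.45, SE 0.10, adjusted p = 0.0184). Atf6 no longer passed without hyperoxia 1 (adjusted p = 0.0744), hyperoxia 3 (0.0705) or room air 3 (0.0519), while the log2 fold change stayed between 0.39 and 0.49. Ern1, the gene for the sensor IRE1, held 28.9, 37.2 and 27.7 CPM in room air and 34.0, 40.8 and 33.9 CPM in hyperoxia with overlap (adjusted p = 0.398, log2 fold change 0.21, 95% interval -0.10 to 0.53).

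Of 8 members grouped here as folding factors of the ER lumen, 3 fell and 5 did not pass. Pdia6, a protein disulfide isomerase gene, held 344, 308 and 314 CPM in room air and 232, 204 and 207 CPM in hyperoxia. It fell 1.50-fold with groups apart (log2 fold change -0.59, SE 0.11, adjusted p = 0.00801) and was called with each library left out (adjusted p of at most 0.0488). Calr encodes calreticulin, a calcium-binding chaperone of glycoproteins, and held 865, 790 and 750 CPM in room air and 562, 487 and 586 CPM in hyperoxia. It fell 1.47-fold, also with groups apart (log2 fold change -0.56, SE 0.13, adjusted p = 0.0204). Hsp90b1, the gene for the chaperone GRP94, held 449, 401 and 411 CPM in room air and 331, 308 and 318 CPM in hyperoxia, again without overlap (log2 fold change -0.40, SE 0.11, adjusted p = 0.045). In the annotation, 15.7% of its exonic bases overlap another gene.

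Calr and Hsp90b1 were near the threshold. Calr was called only without room air 3 among the fits that left out 1 library; without room air 1, room air 2, hyperoxia 1, hyperoxia 2 and hyperoxia 3 its adjusted p was 0.0681, 0.0582, 0.0646, 0.0775 and 0.0561. Hsp90b1 likewise was called only without room air 3, and the same 5 fits gave 0.121, 0.0787, 0.112, 0.132 and 0.144. Their log2 fold changes stayed between -0.63 and -0.48 and between -0.43 and -0.36.

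Hspa5, the gene for BiP, the main ER chaperone and the usual readout of ER stress, held 561, 558 and 551 CPM in room air and 463, 448 and 439 CPM in hyperoxia. The groups did not overlap, and the spread within each was small, but the gene did not pass across all genes (log2 fold change -0.31, SE 0.11, adjusted p = 0.109). DESeq2 called it (adjusted p = 0.00778). A further 3 luminal genes had no overlap and did not pass in edgeR. They were Manf, a secreted ER stress factor gene (log2 fold change -0.36, adjusted p = 0.0665), Pdia4, another disulfide isomerase gene (-0.33, 0.0874), and Creld2 (-0.33, 0.126). Sdf2l1, which helps BiP, overlapped (-0.11, adjusted p = 0.797) and was highest in hyperoxia 2.

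Of the other 4 members of the ER chaperone arm, 1 rose and 3 did not pass. Herpud1, an ER membrane protein of the degradation complex, held 70.0, 77.8 and 76.1 CPM in room air and 104, 145 and 96.5 CPM in hyperoxia. It rose 1.54-fold with groups apart (log2 fold change 0.63, SE 0.15, adjusted p = 0.0211), but missed the threshold when room air 1 (adjusted p = 0.0786) or room air 2 (0.0615) was left out. Edem1, which passes misfolded glycoproteins to degradation, held 74.2, 74.2 and 72.5 CPM in room air and 86.0, 94.5 and 82.5 CPM in hyperoxia (adjusted p = 0.137, log2 fold change 0.25). Sel1l, a scaffold of the degradation complex (0.16, adjusted p = 0.375), and Dnajb9, a BiP co-chaperone and XBP1 target (0.18, adjusted p = 0.348), did not pass either. In all 4 genes the lowest hyperoxia library was above the highest room air library.

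Division of the ER chaperone arm into 8 luminal folding genes and these 4 was made after their values were seen. It supports nothing about degradation genes or luminal folding genes as classes. Dnajb9, named above as a BiP co-chaperone, could as well be counted with the folding genes. It was placed with the 4, at a log2 fold change of 0.18 and with hyperoxia wholly above room air. Of the degradation genes that are no members, 5 had log2 fold changes of -0.18 for Syvn1, -0.10 for Os9, -0.06 for Edem2, -0.02 for Edem3 and 0.01 for Derl1, none of them called. Likewise the abundant luminal isomerase gene P4hb stood at 0.01, and the BiP co-chaperone genes Dnajc10 and Dnajc3 at 0.11 and 0.13. Those 8 genes outside the members were chosen after their values were seen, and other genes of the same list went with the division. The degradation genes Erlec1 (0.41, called higher) and Selenos (0.35, not called) were above 0. The luminal folding genes Hyou1 (-0.28) and Pdia3 (-0.19) were below it, and neither was called. All 8 members grouped as luminal, without Dnajb9, had a log2 fold change below 0 in the edgeR fit. Sdf2l1 alone was above 0 without hyperoxia 3 (0.01) and in a fit with a term for Y-linked reads (0.30). In 7 of the 8 the groups did not overlap. Over all genes tested, 16.5% had hyperoxia wholly above room air and 14.4% wholly below. Among the 37 members the counts were 11 and 8.

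**Figure D3:**
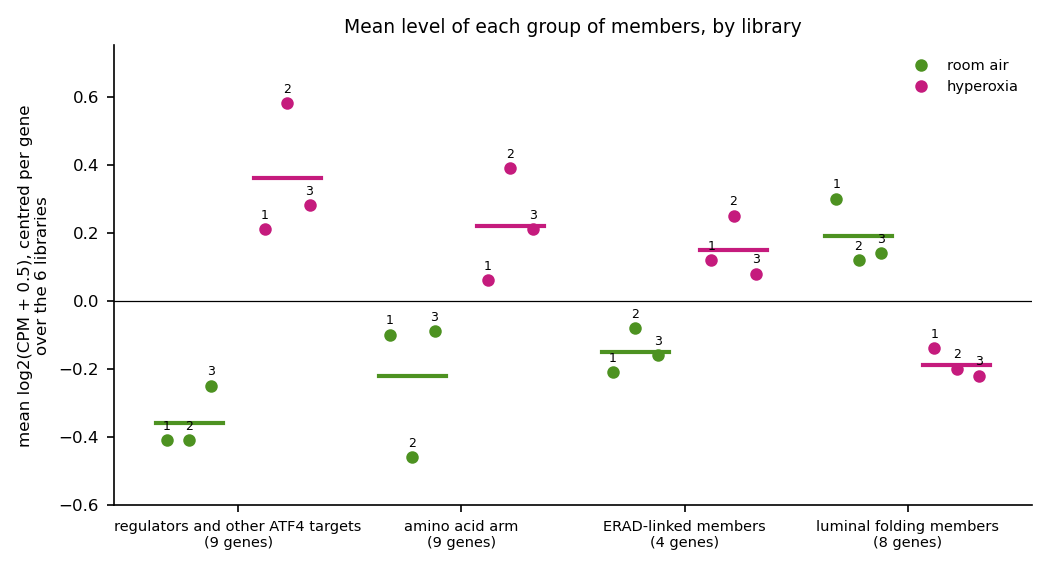
Mean of log2(CPM + 0.5), centred on each gene's mean over the 6 libraries, for 4 groups of members in each library. Points are libraries numbered by replicate, and lines are group means. Hyperoxia lies above room air for the ATF4 axis, the amino acid arm and the 4 members grouped as ERAD-linked, and below it for those grouped as luminal folding. The last 2 groups were split after their values were seen.

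Averaged over genes in each library, the 2 arms differed between the groups in opposite directions. The value used was log2(CPM + 0.5), centred on each gene's mean over the 6 libraries. The amino acid arm stood at -0.10, -0.46 and -0.09 in room air and 0.06, 0.39 and 0.21 in hyperoxia. The ER chaperone arm stood at 0.13, 0.05 and 0.04 in room air and at -0.05, -0.05 and -0.12 in hyperoxia. So the difference, hyperoxia minus room air, was 0.44 for the amino acid arm and -0.15 for the ER chaperone arm. The latter joins -0.37 for the genes grouped as luminal folding with 0.30 for the other 4 members. For the 9 regulators and other targets of ATF4 the difference was 0.72. These means describe genes chosen with earlier results known, and no test was made of them.

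Hyperoxia 2 had the highest value in the ATF4 groups, and it was also the library with the most alveolar type 1 and the least endothelial marker signal. Summed markers of smooth muscle and pericytes (458 CPM, beside 206 and 295 CPM in the other hyperoxia libraries) and of fibroblasts (666 CPM, beside 421 and 404 CPM) were highest there too. Most of that fibroblast sum came from Col1a1 and Col1a2 (330 and 317 CPM). Of the 5 fibroblast markers, 4 were highest in hyperoxia 2, and Pdgfra was lowest there (2.74 CPM). Immediate early and handling genes summed to 6230 to 9428 CPM in room air and 10498 to 10971 CPM in hyperoxia. The part of these cell types and of handling in the members' changes was not tested. Without hyperoxia 2, the log2 fold changes of the 5 ATF4 targets that rose ran from 0.89 for Asns to 1.83 for Nupr1, and all 5 were called. That fit keeps hyperoxia 1 and 3, whose alveolar type 1 sums (5163 and 5270 CPM) were also above every room air library. Both had almost no Y-linked reads, so sex and oxygen cannot be told apart in that fit. A fit with a term for Y-linked reads compares hyperoxia 2 alone with room air, and its calls are not read as effects of hyperoxia. Atf6 (adjusted p = 0.0776) and Hsp90b1 (0.101) did not pass in it.

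Levels can be compared between genes per kilobase of exon. On that scale Calr led in both groups, at 278 CPM per kilobase in room air and 189 in hyperoxia. Ppp1r15a followed (139 and 129), then Hspa5 (132 and 106). Hsp90b1 was above Atf4 in room air (104 and 96.3) and below it in hyperoxia (79.1 and 101.7). At the low end stood Pycr1 (0.631 and 0.845) and Aldh1l2 (0.235 and 0.426). Among the ATF4 targets that rose, Nupr1 went from 5.86 to 23.8 CPM per kilobase, Atf5 from 8.79 to 20.2, Asns from 5.67 to 11.7, Trib3 from 4.07 to 8.69 and Vldlr from 2.75 to 5.86.

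Wider lists of the same pathways were read in the same fit. Of 19 further ATF4 targets, 6 rose, 0 fell and 13 did not pass (median log2 fold change 0.56). The 6 come to 31.6%, beside 6.77% higher among all genes tested. The 3 with the largest rises were Gdf15, a stress cytokine gene (log2 fold change 3.89, adjusted p = 0.000102), Sesn2, a brake on mTOR (2.18, adjusted p = 9.62e-05), and the cystine transporter gene Slc7a11 (2.13, adjusted p = 0.0018). Gdf15 and Sesn2 are known targets of p53 as well, and Slc7a11 of NRF2. Hyperoxia 2 was the highest library for 12 of the 19. Transfer RNA synthetases are another class of ATF4 targets. Of 12 cytosolic synthetase genes only the seryl enzyme gene Sars1 passed, from 115 ± 10.5 to 162 ± 18.2 CPM (adjusted p = 0.0243, log2 fold change 0.49). That is 8.33% of the list, close to the 6.77% higher among all genes tested.

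In the rest of folate, serine and proline metabolism, 2 of 14 genes tested rose (14.3%, beside 6.77% of all genes tested) and 0 fell. These were Mthfd1, the cytosolic folate enzyme gene (log2 fold change 0.66, SE 0.15, adjusted p = 0.017), and Aldh1l1, the cytosolic relative of Aldh1l2 (1.06, SE 0.29, adjusted p = 0.038). In the eIF2 machinery 0 of 13 genes were called by edgeR, DESeq2 or limma-voom, and 1 had an unadjusted p below 0.05 in edgeR. Gcn1, which activates GCN2 and had the highest CPM of them before correction for length, stood at -0.28 (log2 fold change, adjusted p = 0.21).

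Of 24 further ER folding and degradation genes, 1 rose (4.17%, beside 6.77% of all genes tested), 0 fell and 23 did not pass (median -0.04). The 1 that rose was Erlec1, an ER lectin gene of the degradation pathway, from 34.4 ± 1.53 to 45.9 ± 4.04 CPM (adjusted p = 0.0395, log2 fold change 0.41). Among 7 genes of other ER-bound transcription factors and their proteases, edgeR, DESeq2 and limma-voom called 0, and 1 had an unadjusted p below 0.05 in edgeR. Creb3l2, with the highest CPM over both groups before correction for length, stood at 0.28 (log2 fold change, adjusted p = 0.17).

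**Figure D4:**
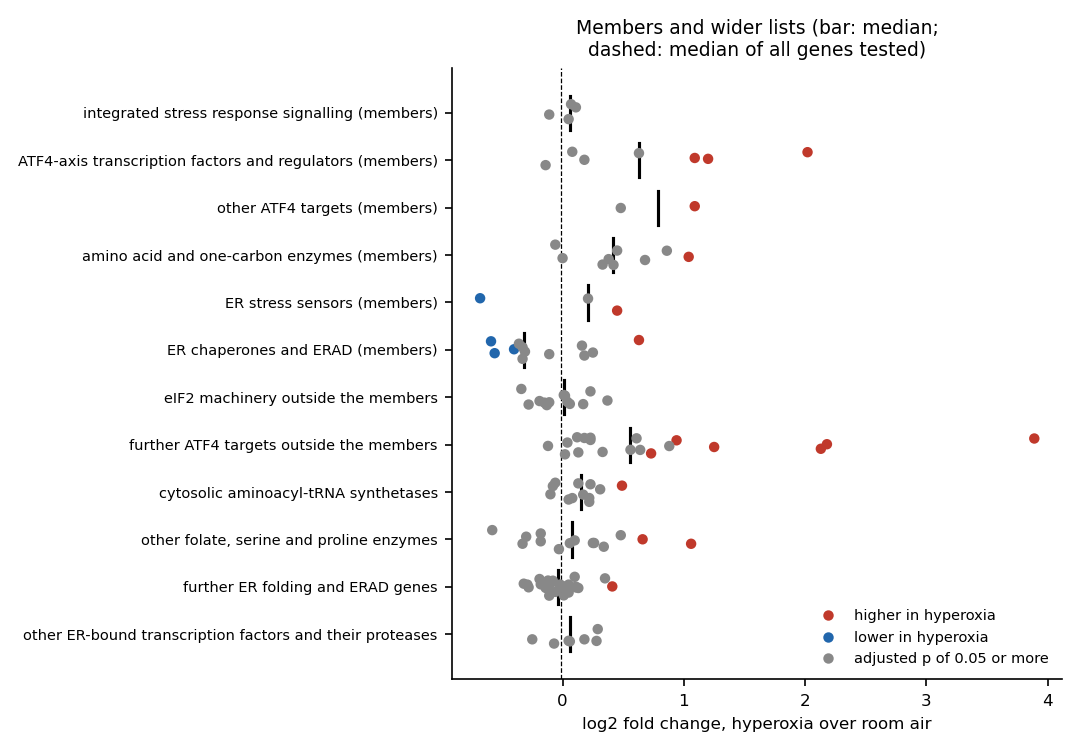
Log2 fold change of every tested gene in the 6 groups of members and in 6 wider lists, hyperoxia over room air. Red and blue points were called higher and lower, grey points did not pass, black bars are list medians and the dashed line is the median of all genes tested (-0.01). The further ATF4 targets reach 3.89, while the further ER folding genes lie between -0.32 and 0.41.

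The composite ATF4 element occurred in 3.97% of 32851 promoter windows and in those of 7 members. Of these 7, Nupr1, Vldlr, Trib3, Asns and Herpud1 rose, and Chac1 (log2 fold change 0.48) and Pycr1 (0.42) did not pass. Among all 334 tested genes with the element, 9.88% were higher and 5.39% lower. Without the members these were 8.56% and 5.50% of 327. All 11830 tested genes with a window had 7.26% higher and 4.91% lower.

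ERSE was rare, in 0.119% of the windows, and it was first described in chaperone promoters such as these. Of the 5 members that hold it, 3 fell (Pdia6, Calr and Hsp90b1) and 2 did not pass (Hspa5 and Creld2). Over all 19 tested genes with ERSE, 0 were higher, 5 were lower (26.3%) and 16 had a log2 fold change below 0, with a median of -0.35. Among all 11830 tested genes with a window, 4.91% were lower and 51.1% were below 0. Several of the 16 were too low to place, such as Xlr3a (0.407 CPM in room air, SE 1.11) and Derl3 (0.605 CPM, SE 0.90). Among the 14 that are no members, 2 were lower and 11 below 0. Those 2, named here after their values were seen, were Hnrnpa3, an RNA-binding protein gene (log2 fold change -0.50, SE 0.10, adjusted p = 0.00913), and Pan2, a deadenylase gene (-0.49, SE 0.14, adjusted p = 0.0436). ERSE-II occurred in 0.0365% of windows and in 1 member, Herpud1. The XBP1 and ATF6 element TGACGTGG occurred in 0.676% of windows and in 0 members. In the 120 tested genes that hold it, 12 were higher and 1 lower.

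**Figure D5:**
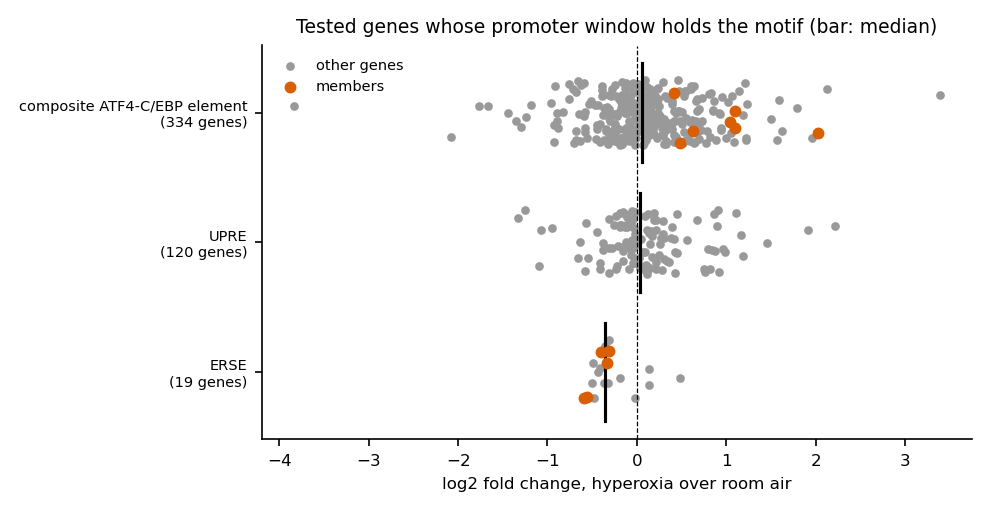
Log2 fold change, hyperoxia over room air, of the tested genes whose promoter window holds the composite ATF4 element (334 genes), the XBP1 and ATF6 element (UPRE, 120 genes) or ERSE (19 genes). Orange points are members, grey points other genes, and bars are medians (0.063, 0.041 and -0.354). Of the ERSE genes, 16 of 19 lie below 0.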

How the data were processed

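The deposited values were raw counts per Ensembl gene ID in 6 libraries. The submitters' processing notes name GRCm39, Subread 2.0.6, HISAT2 2.2.1, DESeq2 and featureCounts without their roles. Not given in the sources used here are the annotation, the strand setting and how multimapping reads were treated, so counts of overlapping genes are uncertain. Symbols matched 51948 of 56941 IDs. Ddit3 had a further ID, which held 0 counts. Exon lengths and overlaps came from GENCODE M21 (GRCm38). Other genes overlap more than 10% of the exonic bases of Cebpb, Hsp90b1, Aldh1l2, Eif2ak1, Ddit3 and Psph.

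Groups came from the sample titles. Between libraries of the same group, chi-square divided by its degrees of freedom was 14.1 or more, and no library was treated as a duplicate. Genes were kept by filterByExpr (minimum count 10, minimum total 15), scaled by TMM and tested in edgeR 4.0.16 (R 4.3.3) by the robust quasi-likelihood method with no covariate, called at a Benjamini-Hochberg adjusted p below 0.05. CPM are counts scaled after TMM. Each SE is the size of the fold change on the log2 scale divided by √F, so the 95% intervals are approximate. The test was checked on simulated data. Alternatives were other scalings and filters, each library left out, replicate number as a block, DESeq2 1.42.0, limma-voom (limma 3.58.1) and other thresholds. A term for Y-linked reads was chosen after seeing the data.

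The members and lists were chosen with earlier results of these data known. Every member is accounted for. Values per library are given for called members and for the hub genes, and each wider list is represented by up to 3 called genes by size with a mean of at least 1 CPM, or by its gene of highest CPM. Some synthetase and ER genes were matched by an older symbol.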

Additional observations from a re-analysis of the deposited data

How the results depend on the processing

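The count of 7 members higher kept within 1.5 times under every alternative (6 to 7 with each library left out). The 4 lower became 7 in DESeq2, 2 with the replicate block, 1 at an adjusted p below 0.01 and 2 to 4 with each library left out. In the ER chaperone arm, the 3 lower became 6 in DESeq2, 5 scaled by library size only, 5 at an adjusted p below 0.1, 1 with the replicate block, 1 at 0.01 and 1 to 3 with each library left out. The 1 higher there became 0 at 0.01 and 0 to 1 with each library left out. In the amino acid arm, the 1 higher became 2 with no filter on low counts, in DESeq2, at 0.1 and in the fit with a term for Y-linked reads, and was 1 to 2 with each library left out. The cause was not tested.

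No pairing of the libraries by replicate number was evident, though a check on so few libraries cannot exclude it. The correlation of same-numbered deviations from the group means was 0.112, -0.0389 and -0.0899, and only replicate 1 correlated best with its own number in both groups. The replicate block ended the calls of Calr (adjusted p = 0.0605) and Hsp90b1 (0.112) and of no other member.

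Uncalled genes crossed 0. Cebpg was at 0.10 and Sdf2l1 at 0.30 in the fit with a term for Y-linked reads. With each library left out, Eif2ak1 ran from -0.02 to 0.13, Eif2ak4 from -0.15 to 0.16, Ppp1r15a from -0.32 to 0.15, Atf4 from -0.06 to 0.18, Aldh18a1 from -0.17 to 0.10, Shmt2 from -0.14 to 0.18 and Sdf2l1 from -0.37 to 0.01. The differences of the arms kept their sign, at 0.31 to 0.52 and -0.17 to -0.12. Lowly counted members such as Pycr1, Chac1 and Aldh1l2 carry the widest intervals.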
